A study of Mus musculus with 4 samples.

Results

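The microRNA (miRNA) probes mmu-miR-210, mmu-miR-709, mmu-miR-804, mmu-miR-2141 and mmu-miR-2140 of a mouse nanoString panel are described here across 4 libraries of sorted retinal cells. They are 5 of 566 mouse miRNA probes measured, and they were picked because their counts were higher in young Müller glia than in progenitors or adult glia. Their levels are therefore a description and support no test. Müller glia (MG) span the whole depth of the retina and are formed late in its development from retinal progenitor cells (RPCs). The P2 RPC library held progenitors from postnatal day 2 carrying Sox2-Cre:tdTomato, and the P8, P11 and Adult MG libraries held glia carrying Rlbp-Cre:tdTomato. All mice received tamoxifen at 75 mg/kg to switch on the red label, on days 0 and 1 for P2, days 6 and 7 for P8, days 9 and 10 for P11, and on consecutive days after day 21 for the adults. Labelled cells were sorted and pooled from 8 retinas (P2), 52 (P8), 32 (P11) and 40 (Adult). The P11 library is titled day 11 or 12, and the series' own design text calls the progenitors adult where every sample label says P2. The labelled cells are those in which each Cre line was active at the time of tamoxifen. The assay lane and the number of retinas changed together with age, and between progenitors and glia also with Cre line and cell type, so these cannot be told apart. Each group was 1 library, and differences are given without a p-value. Fewer expressing cells in a sorted pool and less miRNA per cell cannot be told apart either.

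A miRNA is a short RNA that guides the silencing machinery to mRNAs that pair with its seed, the bases near its 5′ end. miR-210 is the best known miRNA of low oxygen: hypoxia-inducible factor switches it on, and it represses proteins of mitochondrial respiration such as the iron-sulphur cluster scaffold ISCU. The young retina lies in low oxygen while its vessels are still growing, and Müller glia respond to low oxygen by making vascular endothelial growth factor. miR-709 has been described in mouse cells as partly nuclear, where it binds the primary transcript of miR-15a and miR-16. No role is given here for miR-804, miR-2141 or miR-2140.

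The sequences that the probes of miR-210 and miR-804 refer to are shown to identify the molecules; capitals mark the seed, bases 2 to 8, and the sequences and positions are RefSeq's on build GRCm38.p6. The probe is named miR-210 without an arm, an older name for the 3p arm, and both arms are given.
miR-210-3p, chr7:141221407-141221428, minus strand: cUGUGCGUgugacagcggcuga
miR-210-5p, chr7:141221445-141221466, minus strand: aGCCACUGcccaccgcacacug
miR-804, chr11:50357799-50357820, minus strand: uGUGAGUUguuccucaccugga
The seeds differ from each other, and none is shared with another mature miRNA among the 1679 compared. In the RefSeq gene table the miR-210 gene lies between Rassf7 and Gm51460 and overlaps no listed gene, the miR-709 gene overlaps Rfx1, and the miR-804 gene overlaps Cby3. No gene is listed there for miR-2141 or miR-2140. No sequence is shown for miR-709, miR-2141 or miR-2140.

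Each count depends on the lane's background, which was not equal. The panel carries 8 negative probes with no target, and their mean raw count was 35.8 at P2, 70.5 at P8, 50.4 at P11 and 38.6 in adult glia. Of these 8 probes 7 were highest in the P8 MG lane, as were 27 of 33 probes for viral miRNAs and 220 of the 319 miRNA probes that were below background in all 4 libraries. A shape with its peak in P8 MG is therefore also the shape of the background. The lowest negative probe was NEG_E at 18 in P2 RPC, and NEG_D at 20, 16 and 11 in P8, P11 and Adult MG. The highest was NEG_F at 53 at P2, NEG_B at 114 at P8, NEG_F at 97 at P11 and NEG_C at 62 in adult glia. Background was set at the negative mean plus 2 SD, or 60.7, 137, 106 and 71.7 raw counts in the same order. The highest viral probe, for which the retina should hold no target, reached 64, 134, 99 and 91, so 4 viral probes in P2 RPC and 2 in Adult MG passed that threshold and none did in P8 or P11 MG. The lanes held 482118 miRNA counts at P2, 470304 at P8, 484305 at P11 and 695390 in adult glia. The summed normalized count of 8 miRNAs abundant in Müller glia was 120594, 212309, 296264 and 555062. Of these, miR-204 went from 23241 at P2 to 281313 in adult glia. miR-9 was highest in P11 MG, miR-125a-5p fell at each step from 8808 to 5595, and the others rose at each step. The summed normalized count of the photoreceptor miRNAs miR-183, miR-96 and miR-182 was 20075 at P2, 5518 at P8, 1360 at P11 and 771 in adult glia.

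miR-210 was the most abundant of the 5 probes and stood far above background in every library. Its raw counts were 964 at P2 (95% Poisson interval 904 to 1027), 2010 at P8 (1923 to 2100), 1821 at P11 (1738 to 1907) and 695 in adult glia (644 to 749). All intervals here cover counting error only. The young libraries were both high and the other two both low, with no overlap of the intervals between these pairs. These counts were 27.0, 28.5, 36.1 and 18.0 times the mean of the lane's negative probes, so that by this measure P11 MG was highest and P8 MG was close to P2 RPC. miR-210 ranked 46th of 566 by raw count at P2, 29th at P8, 27th at P11 and 44th in adult glia. After scaling each lane on the same 100 miRNA probes, those most abundant on average over all lanes, the normalized counts were 863, 1841, 1954 and 790. The ratio of P8 MG to P2 RPC was 2.13 (95% interval 1.97 to 2.31) and that of P11 MG to Adult MG was 2.47 (2.26 to 2.70). P11 MG and P8 MG were not separated beyond counting error (ratio 1.06, 0.996 to 1.13), nor were P2 RPC and Adult MG (1.09, 0.989 to 1.21). In the authors' processed table, whose values are scores, miR-210 read 915, 1418, 1668 and 810. The ratio of P8 MG to P2 RPC depended on the scaling, since its log2 value of 1.09 lay between 0.07 and 1.31 under the other 7 scalings tried and passed 2-fold in 3 of them.

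miR-709 was weaker, and its count in adult glia lay near background. The raw counts were 131 at P2, 441 at P8, 270 at P11 and 80 in adult glia. P8 MG was highest, P11 MG came next, and the Adult MG value lay at 1.12 times its background threshold and below the highest viral probe of that lane. In multiples of the negative mean the probe stood at 3.66, 6.26, 5.36 and 2.07. The normalized counts were 117, 404, 290 and 91.0, giving a ratio of 3.44 (2.83 to 4.22) for P8 MG to P2 RPC and of 4.44 (3.49 to 5.71) for P8 MG to Adult MG. P8 MG exceeded P11 MG by a ratio of 1.39 (1.20 to 1.63), under the 2-fold threshold, and P2 RPC and Adult MG were not separated (1.29, 0.969 to 1.72). The log2 ratio to Adult MG, 2.15, passed 2-fold under all 7 other scalings (1.55 to 3.03), while that to P2 RPC, 1.78, passed it under 5 (0.76 to 2.01).

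miR-804 was above background only in the young glia. Its raw counts were 57 at P2 (43.2 to 73.9), 270 at P8 (239 to 304), 116 at P11 (95.9 to 139) and 41 in adult glia (29.4 to 55.6). The P2 RPC and Adult MG counts were below their lanes' thresholds and below the highest viral probe, and the P11 MG count was 1.10 times the threshold. Only P8 MG, at 1.97 times the threshold and 3.83 times the negative mean, was well clear of it. Set against the thresholds of the weak lanes, P8 MG was at least 4.55-fold higher than P2 RPC and at least 3.03-fold higher than Adult MG. P8 MG exceeded P11 MG by a ratio of 1.99 (1.59 to 2.49), just short of 2-fold. Both bounds kept to at least 2-fold under all 7 other scalings, with log2 values from 1.16 to 2.41 against P2 RPC and from 1.004 to 2.48 against Adult MG. In the authors' processed table the probe read 77 in P8 MG and stood at 1, the floor of that table, in the other libraries.

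By normalized counts miR-2141 had, of the 5 probes, the largest step from its highest library to the next. With the negative mean subtracted from raw counts, P11 MG was 0.329 of P8 MG for miR-804 and 0.340 for miR-2141. The raw counts of miR-2141 were 215 at P2, 1088 at P8, 396 at P11 and 284 in adult glia. P8 MG stood alone, and the other 3 libraries lay within a narrower range well above background, at 3.54 to 3.96 times their thresholds. P8 MG reached 15.4 times its lane's negative mean, against 6.01 at P2, 7.86 at P11 and 7.35 in adult glia. The normalized counts were 192, 996, 425 and 323, with ratios of 5.18 (4.47 to 6.02) for P8 MG to P2 RPC and 3.09 (2.71 to 3.53) for P8 MG to Adult MG. P11 MG was 2.34-fold lower than P8 MG (2.09 to 2.64) and exceeded Adult MG by a ratio of only 1.32 (1.13 to 1.54). Adult MG in turn exceeded P2 RPC by 1.68 (1.40 to 2.01). The P8 MG ratios passed 2-fold under all 7 other scalings, with log2 values from 1.35 to 2.59 against P2 RPC and from 1.03 to 2.50 against Adult MG.

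miR-2140 was the weakest of the 5 in P8 and P11 MG, and miR-804 was weaker in P2 RPC and Adult MG. Its raw counts were 72 at P2 (56.3 to 90.7), 209 at P8 (182 to 239), 104 at P11 (85.0 to 126) and 86 in adult glia (68.8 to 106). P11 MG fell just below its threshold of 106, and P2 RPC and Adult MG lay 1.19 and 1.20 times above theirs. The Adult MG count was also below the highest viral probe of its lane, at 91. In multiples of the negative mean the probe varied little outside P8 MG, at 2.01 in P2 RPC, 2.06 in P11 MG and 2.23 in Adult MG, against 2.96 in P8 MG. The normalized ratio of P8 MG to P2 RPC was 2.97 (2.26 to 3.94), and that to Adult MG was 1.96 (1.52 to 2.55), under the threshold. The log2 ratio to P2 RPC, 1.57, passed 2-fold under 5 of the 7 other scalings (0.55 to 1.79), and that to Adult MG, 0.97, passed it on total counts (1.85), with the negative mean subtracted (1.24) and on the authors' processed values (4.91). P11 MG and Adult MG could not be ordered, since the first is below background. The authors' processed table holds 30 for P8 MG and the floor of 1 elsewhere.

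**Figure D1:**
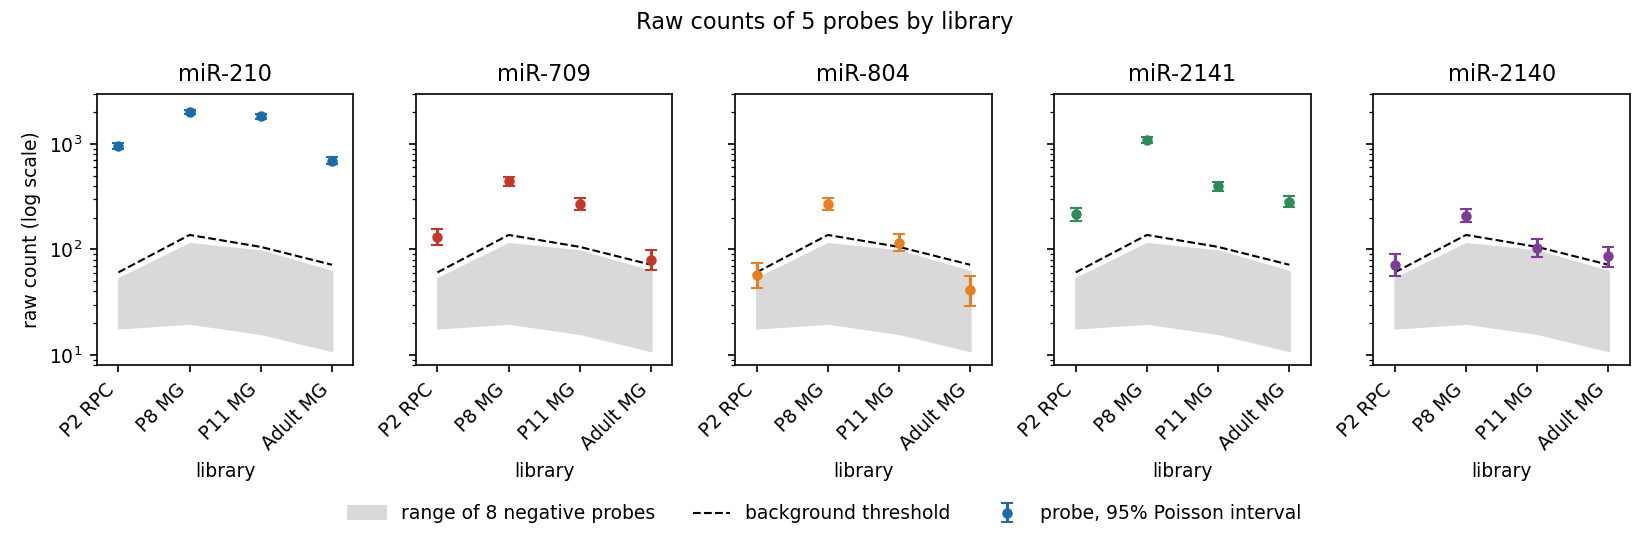
Raw counts (log scale) of the 5 probes in each library, with 95% Poisson intervals as bars, the range of the 8 negative probes in grey and the background threshold dashed. miR-210 and miR-2141 lie above the grey band in all 4 libraries, miR-804 falls inside it in Adult MG, and the band itself is highest in P8 MG.

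**Figure D2:**
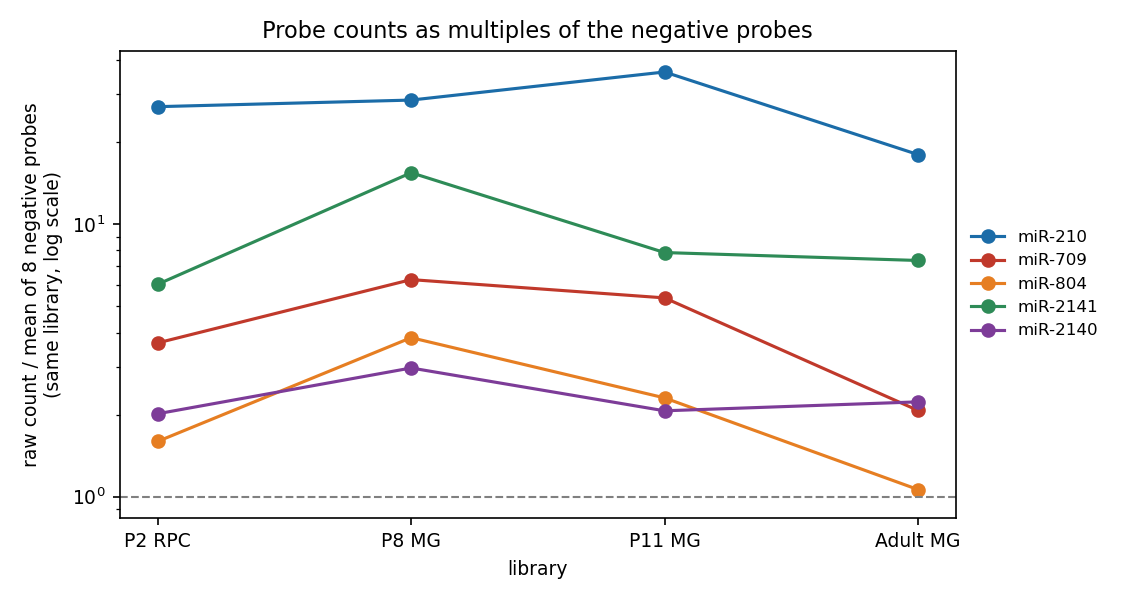
Each raw count divided by the mean of the 8 negative probes of the same library (log scale); the dashed line marks 1. miR-709, miR-804, miR-2141 and miR-2140 keep their highest value in P8 MG, while miR-210 is highest in P11 MG at 36.1.

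The raw ratio of P8 MG to P2 RPC is set here beside those of probes with no target and of miRNA probes below background. The 5 probes were picked for being higher in young glia. The 319 background probes were kept only if below the threshold in every lane, P8 MG included. The ranking is therefore a description and cannot show a rise above background. The negative mean itself had a ratio of 1.97, and the 8 negative probes ran from 0.909 for NEG_D to 3 for NEG_B. The raw ratios of miR-2141 (5.06) and miR-804 (4.74) were above those of all 8 negative probes, all 33 viral probes, which reached 3.50, and all 319 background miRNA probes, which reached 4.2. miR-709, at 3.37, was above all negative probes, and 1 viral probe and 6 of the 319 background probes reached it. miR-2140, at 2.90, was below NEG_B, and 2 viral and 10 background probes reached it. miR-210, at 2.09, was reached by 3 negative, 10 viral and 89 background probes. Its raw counts were 15.9 times the threshold in P2 RPC and 14.6 times in P8 MG. Scaled on the negative mean, its log2 ratio was 0.08. Subtracting the negative mean left its raw ratio at 2.09. The same subtraction moved the ratio of miR-709 to 3.89, of miR-2141 to 5.68 and of miR-2140 to 3.82. That of miR-804 became 9.39, with 21.25 counts left in P2 RPC, where the probe was below background.

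Against Adult MG the order was different, and the same limits on the ranking apply. The negative probes had raw ratios of P8 MG to Adult MG from 1.37 to 2.59, and the background probes went up to 13.0. miR-804 (6.59) and miR-709 (5.51) were each reached by 1 of the 319 background probes and by no viral probe. miR-2141 (3.83) was reached by 1 viral and 6 background probes, and miR-210 (2.89) by 2 and 18. The ratio of miR-2140, 2.43, was reached by 1 negative, 2 viral and 44 background probes. After subtraction of the negative mean miR-804 had 2.38 counts left in Adult MG, so no ratio of what remained is given.

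**Figure D3:**
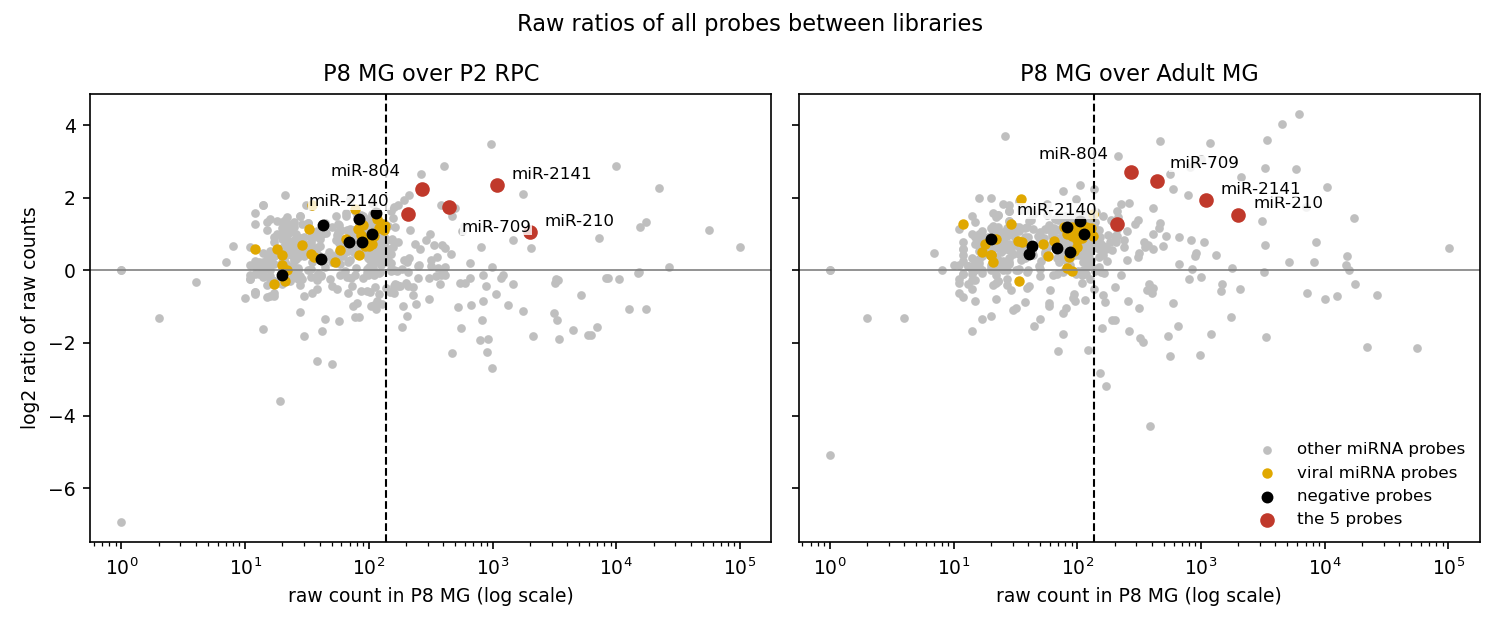
Log2 ratio of raw counts, P8 MG over P2 RPC (left) and P8 MG over Adult MG (right), against the raw count in P8 MG (log scale) for all miRNA, viral and negative probes; the dashed line marks the P8 MG background threshold. Most negative and viral probes lie above 0, and the 5 probes lie to the right of the threshold, miR-2140 nearest to it.

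A miRNA was called different when the stronger of 2 libraries was above background, the ratio reached 2-fold and the counting interval excluded 1. In P8 MG against P2 RPC all 5 probes were called higher, where 12.7% of the 229 probes above background in either library were. Of these 229, miR-2141 ranked 4th by ratio, miR-804 6th, miR-709 11th, miR-2140 14th and miR-210 39th. In P8 MG against Adult MG 4 of the 5 were called, all but miR-2140, against 17.2% of 180. In P11 MG against P2 RPC 4 were called, again all but miR-2140, against 17.7% of 232, with ratios from 2.21 for miR-2141 to 2.47 for miR-709. In P11 MG against Adult MG only miR-709 and miR-210 were called, against 12.3% of 179, while miR-2141 had a ratio of 1.32 and miR-804 a bound of 1.53. From P8 MG to P11 MG only miR-2141 was called lower, against 6.37% of 157. The 5 had a median log2 ratio of 1.78 for P8 MG over P2 RPC and of 1.60 for P8 MG over Adult MG, beside 0.39 and 0.26 over all probes tested. It was 1.18 and 0.61 for P11 MG against the same libraries, beside 0.42 and 0.17. The members were chosen on these contrasts and the comparisons share libraries, so nothing further is read from the counts. Scaled on the 4 housekeeping mRNAs, which lowered every log2 ratio of P8 MG to P2 RPC by 1.03, only miR-804 and miR-2141 were called in that comparison. In P11 MG against P2 RPC none of the 5 was called on positive controls, housekeeping mRNAs, TMM factors or the negative mean, and in P11 MG against Adult MG 4 were on total counts.

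**Figure D4:**
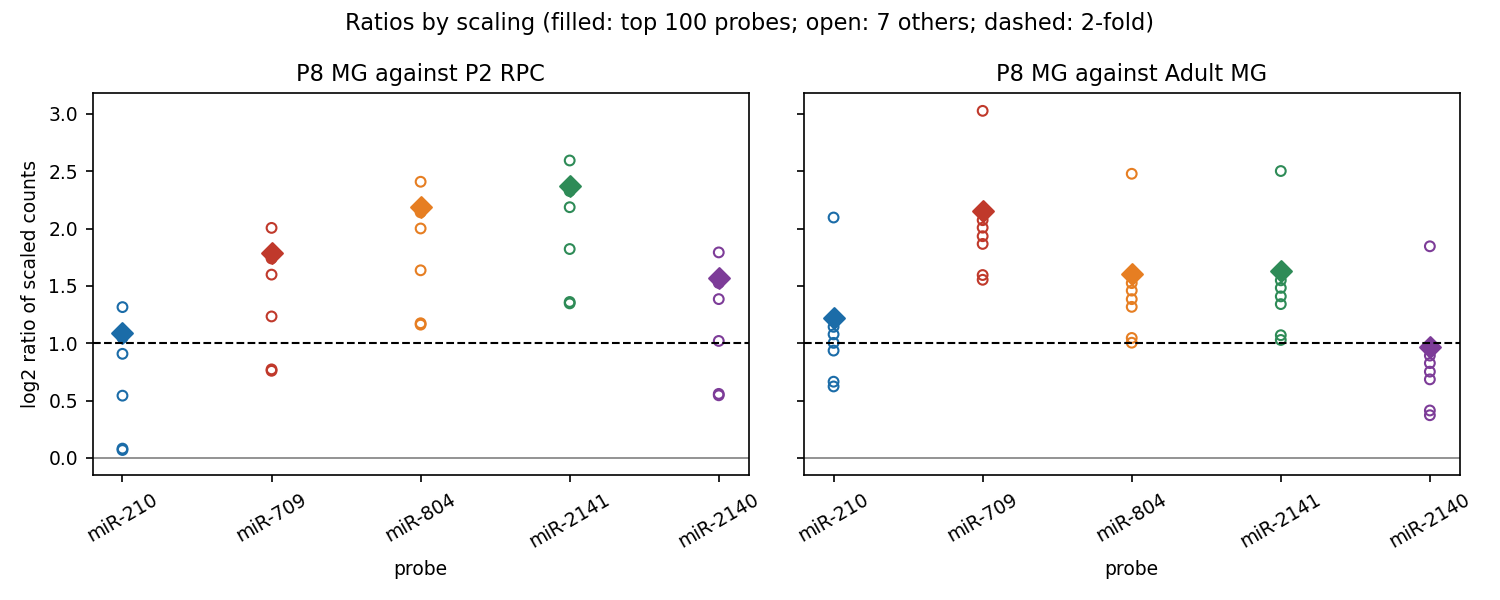
Log2 ratio of scaled counts for the 5 probes in P8 MG against P2 RPC (left) and P8 MG against Adult MG (right); filled diamonds use the 100 most abundant miRNA probes, open circles the 7 other scalings, and the dashed line marks 2-fold. miR-804 and miR-2141 stay above the line in both panels under all 8, and miR-210 comes down to 0.07 in the left panel.

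The shape itself was common on the panel. Of the 157 miRNA probes above background in P8 or P11 MG, 34 (21.7%) had normalized counts in both young libraries above those in both P2 RPC and Adult MG, and after subtraction of the negative mean 25 did. The 5 members are among these by choice, and the alternatives tried put the number of such probes between 8 and 63. The shape was judged on counts not raised to the threshold, so values below background were ordered too. For miR-2140 the P11 MG count was below background, and its ratio to Adult MG was 1.14 (0.849 to 1.54). miR-2140 did not keep the shape when scaled on positive controls, housekeeping mRNAs, ligation controls or the negative mean, and miR-2141 did not on housekeeping mRNAs or ligation controls. On the authors' processed values miR-804, miR-2141 and miR-2140 all lost it. The gap between the lower young library and the higher of the others was 1.31 (log2) for miR-709, 1.29 for miR-804, 1.09 for miR-210, 0.40 for miR-2141 and 0.19 for miR-2140. All gaps here use counts not raised to the threshold. For miR-804 both P2 RPC and Adult MG were below background, and its log2 bound for P11 MG against Adult MG was 0.61. Probes outside the 5 had gaps as large: miR-2135 had 1.59, miR-142-3p 1.41, miR-146a 1.39, miR-322 1.25 and miR-335-3p 1.09. The 5 differed among themselves in when they were high. miR-210 was level over P8 and P11 MG, and miR-709 was lower in P11 MG by a ratio below 2-fold. miR-2141 was 2.34-fold lower in P11 MG than in P8 MG, but its P11 MG level was still 2.21 times that of P2 RPC. miR-804 was 1.99-fold lower in P11 MG than in P8 MG. miR-2140 was at least 1.69-fold lower there, its P11 MG count being below background.

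Likeness of profile was measured as the root mean square difference of mean-centred log2 normalized counts over the 4 libraries, among the 246 other probes above background in at least 1 library. Nearest to miR-210 were miR-335-3p (0.07), the probe shared by miR-181b and miR-181d (0.14) and miR-690 (0.20). miR-335-3p had raw counts of 100, 214, 178 and 78 in age order, high in both young libraries like miR-210 but far weaker. miR-709 and miR-804 were nearest to each other (0.21), followed for both by miR-2135 (0.28 and 0.33). Next for miR-709 came miR-210 (0.34) and for miR-804 miR-2141 (0.40). miR-2141 was nearest to miR-764-5p (0.24), miR-2140 (0.30) and miR-1224 (0.33). miR-2140 was nearest to miR-1224 (0.12), miR-764-5p (0.13) and miR-129-5p (0.19), the last a neuronal miRNA. With 4 libraries and a shared background shape, such likeness is a description of these lanes only.

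miR-2141 and miR-2140 carry neighbouring numbers, given in the same naming round. Of the 14 probes numbered miR-2132 to miR-2183, 12 had their highest raw count in P8 MG, but only miR-2141, miR-2140, miR-2135, miR-2146 and miR-2183 were above background in any library. miR-2135 had 51 raw counts at P2, 213 at P8, 128 at P11 and 24 in adult glia, so it was above background in the young glia only, like miR-804. miR-2146 (53, 120, 77 and 77) passed only in Adult MG, and miR-2183 (104, 68, 69 and 54) was highest in P2 RPC. Of the 19 probes numbered miR-700 to miR-720, 16 were highest in P8 MG by raw count and 5 were above background somewhere. Besides miR-709 these were miR-706 (111, 44, 83 and 20), miR-708 (91, 129, 87 and 53), miR-717 (59, 96, 87 and 72) and miR-720, the last with 26466, 12637, 10414 and 20736. Among these 19 only miR-709 was above background with the young glia shape.

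Among 15 miRNAs described as responding to low oxygen, miR-210 and miR-322, the rodent counterpart of human miR-424, were called higher in both young libraries against both others. The list's counts and medians include miR-210, which was picked for these contrasts, so its calls say nothing about the list. Of the 15, 13 were above background in P8 MG or P2 RPC, and of these 4 were called higher and 1 lower in P8 MG against P2 RPC, where 12.7% and 9.17% of all probes tested were (median log2 ratio 0.67, beside 0.39). The 4 were miR-210, miR-23a (ratio 2.16), miR-24 (2.33) and miR-322 (2.38), and the lower one was miR-107, with normalized counts of 437 in P2 RPC and 187 in P8 MG. In P8 MG against Adult MG only miR-210 and miR-322 (ratio 3.81) of 12 were called higher, and miR-23a was called lower, with 518 normalized counts in P8 MG and 3319 in Adult MG. Over all probes tested 17.2% were higher and 15% lower there, and the list's median was 0.03, beside 0.26. In P11 MG against P2 RPC 3 of 13 were called higher (median 0.61) and miR-107 lower, against 17.7% and 10.3% of all, and in P11 MG against Adult MG 2 of 12 were called higher and 1 lower, against 12.3% and 12.8% of all (median -0.13). miR-322 had 227, 541, 751 and 142 normalized counts in age order, highest in P11 MG, whereas miR-210 was not separated between P8 and P11 MG. The remaining listed miRNAs were called in none of these comparisons.

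Of the other cell types with a miRNA above background, microglia and white blood cells, and endothelium, had higher summed levels in both young libraries. The summed normalized count of 6 microglia and white blood cell miRNAs was 294 at P2, 1121 at P8, 1299 at P11 and 677 in adult glia, with 1, 4, 4 and 4 of the 6 above background. Of these, miR-146a had raw counts of 56, 407, 576 and 125 and miR-142-3p 42, 262, 205 and 73. The raw counts of miR-142-5p were 157, 315, 259 and 226 and those of miR-150 were 50, 173, 119 and 145. Neither of these was called in P8 or P11 MG against Adult MG, and miR-150 had its highest normalized count in Adult MG (165). miR-223, a defining myeloid miRNA, was below background in all 4 libraries and miR-155 was listed at 1 in each. The 4 above background in P8 MG were all called higher there than in P2 RPC, and 2 of them than in Adult MG, where 12.7% and 17.2% of all probes tested were. The endothelial miR-126-3p had 340, 462, 360 and 208 raw counts and miR-126-5p was at background throughout. Their summed normalized count was 331 at P2, 455 at P8, 415 at P11 and 266 in adult glia, and miR-126-3p was called in no comparison. All 3 red blood cell miRNAs and all 4 mural and mesenchymal miRNAs were below background in all libraries. Of 4 neuronal miRNAs, summing to 6897, 3461, 1784 and 1828 normalized counts, 1 was called higher and 2 lower in P8 MG against P2 RPC, beside 12.7% and 9.17% of all. The part of these cell types in the counts of the 5 probes was not tested.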

How the data were processed

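The data are from a nanoString nCounter miRNA panel; miRNAs were ligated to sequence tags and counted by barcode, per the labels' protocols. The authors deposited raw counts per probe, as whole numbers, and a processed table whose values are treated as a score. How it was made is not stated in the sources used here; each value matched the raw count less the negative mean plus 3 SD, times 1 factor per lane and with a floor of 1, to within 1 unit for 99.8% to 100% of miRNA probes.

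Each lane was scaled on 5 positive controls and then on a common set of 100 miRNA probes, those most abundant on average over all lanes (factors 0.895, 0.916, 1.07 and 1.14 in age order). A count at or below background (negative mean plus 2 SD) was set to the threshold, and the ratio is then a bound. Intervals of counts are exact Poisson and those of ratios exact conditional binomial, at 95%. With 1 library per group, edgeR's test could not be run; edgeR 4.0.16 gave only TMM factors, and other steps used Python 3.11.15 and scipy 1.17.1. Steps were tested on simulated data.

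The members and lists were chosen with earlier results of these data known. Named were the 5 members, the 3 nearest profiles of each, called members of the hypoxia list, number neighbours above background, and the extreme negative probes. The lists were hypoxia, Müller glia, photoreceptor, neuronal, endothelial, red blood cell, mural and mesenchymal, and microglia and white blood cell miRNAs. Other probes with a gap as large were named after their values were seen. Sequences were found for 2 of the 5 members.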

Additional observations from a re-analysis of the deposited data

How the results depend on the processing

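No value of a called ratio changed sign under any alternative. With 1 library per group no replicate could be left out, and no paired analysis was possible because each group is a single library. The number of members called higher in P8 MG against P2 RPC, 5, fell to 2 on housekeeping mRNAs, 2 on the mean of the negative probes and 3 at 3-fold. That in P11 MG against P2 RPC, 4, was 1 on total counts and on the authors' processed values, and 0 on positive controls, housekeeping mRNAs, edgeR's TMM factors, the negative mean and at 3-fold. That in P11 MG against Adult MG, 2, was 4 on total counts and 1 on housekeeping mRNAs, ligation controls and at 3-fold. The count called lower in P11 MG against P8 MG, 1, was 3 on total counts, ligation controls, with the negative mean subtracted, at 1.5-fold and on the processed values, 2 on positive controls and median-of-ratios factors, and 0 on the negative mean and at 3-fold. That in P8 MG against Adult MG stayed within 1.5 times of 4. The number of members with the young glia shape, 5, was 4 on positive controls and the negative mean, 3 on housekeeping mRNAs and ligation controls and 2 on the processed values. The panel's 34 probes of that shape became 11 on housekeeping mRNAs, 22 on ligation controls, 19 on TMM factors, 13 on the negative mean, 63 with the highest negative probe as background and 8 on the processed values. The hypoxia list's 5 calls in P8 MG against P2 RPC became 3 on positive controls and 2 on TMM factors. In that comparison the panel's 29 higher and 21 lower calls became 8 and 84 on housekeeping mRNAs, 8 and 82 on the negative mean, 24 and 26 on positive controls, 14 and 41 on TMM factors, 35 and 16 on ligation controls, 29 and 40 with the negative mean subtracted, 145 and 33 with no background filter, and 16 and 139 on the processed values. Among the scalings alone, this split went as far as 74 higher and 15 lower (total counts) and 18 and 51 (housekeeping mRNAs) for P8 MG over Adult MG, as reported 31 and 27; 11 and 68 (housekeeping mRNAs) for P11 MG over P2 RPC, as reported 41 and 24; 51 and 9 (total counts) and 11 and 41 (ligation controls) for P11 MG over Adult MG, as reported 22 and 23; and 9 and 6 (negative mean) and 3 and 15 (total counts) for P11 MG over P8 MG, as reported 4 and 10. Scaling shifts every ratio in a comparison by 1 amount, so it leaves the order of the members as it is. Depth limits miR-2140 outside P8 MG, miR-804 in P2 RPC and P11 MG, and miR-709 in Adult MG, whose counting intervals include the threshold.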
